A study of Mus musculus with 16 samples.

Results

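The genes described here are 7 members of the PARP family of ADP-ribosyltransferases, Parp1, Parp8, Parp9, Parp10, Parp11, Parp12 and Parp14, and Dtx3l, a ubiquitin ligase that forms a stable complex with PARP9. They were chosen by symbol, with earlier results of these data known. All 8 were among the 13085 genes of the deposited table and passed the filter on low values. The 16 libraries are of RNA from monocytes of C57BL/6 mice, NFAM1+/+ or NFAM1-/- (homozygous for a Cas9 deletion of exons 2 and 3 of Nfam1, which encodes an ITAM receptor of myeloid cells). The cells were left unstimulated or were stimulated with IFN-γ plus 1 µg/mL MegaCD40L, a multimeric ligand of CD40, for 6 or 24 h, with 2 libraries per genotype, stimulus and time and therefore 4 per stimulus and time. All stimulated groups received both agents, so a response cannot be assigned to IFN-γ or to CD40L. Both genotypes came from intercrosses of NFAM1+/- mice, and the labels do not say which libraries share a mouse, so that p-values measure only the spread between these libraries. For 4 of the 24 h libraries the genotype in the title contradicts the one in the sample's genotype field (its tag), and the title was used unless stated. The labels call the cells peripheral blood monocytes and the study's methods describe isolation from bone marrow.

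Most members of the PARP family take ADP-ribose from NAD+ and attach it to proteins. PARP1 is the abundant nuclear enzyme that senses DNA breaks and builds long poly(ADP-ribose) chains, whereas PARP8, PARP10, PARP11, PARP12 and PARP14 are thought to add single ADP-ribose units. PARP9 and PARP14 carry macrodomains, which bind ADP-ribose, and several of these genes are known as interferon-stimulated genes. Genes that respond to IFN-γ often carry GAS elements, and the interferon regulatory factors bind ISRE elements, while CD40 signals mainly to NF-κB.

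The libraries held 48295939 to 88514341 reads on the listed genes, so that even Parp1, at its lowest with the stimulus at 6 h, rested on 693 to 909 reads per library. Values are CPM, the reads of a gene per 1000000 reads of a library size that the authors had scaled. The CPM of a library summed to 0.756 to 0.788 times 1000000 in unstimulated libraries, to 1.24 to 1.32 times 1000000 with the stimulus at 6 h and to 0.970 to 0.998 times 1000000 with the stimulus at 24 h. Scaling each library to its own total instead moved the median log2 fold change of all genes with the stimulus from -0.13 to -0.86 at 6 h and from 0.02 to -0.32 at 24 h, and the calls that were higher from 48.2% to 21.7% and from 44.5% to 30.7%. Of the cell type markers, the 8 monocyte markers summed to 21630 to 23800 CPM in unstimulated cells at 6 h, 8231 to 10100 CPM with the stimulus at 6 h, 25840 to 29870 CPM unstimulated at 24 h and 8346 to 11550 CPM with the stimulus at 24 h. Most of that sum was Lyz2, at 15690 to 17380 CPM without and 2667 to 4159 CPM with the stimulus at 6 h, and while Csf1r, Ccr2, Itgam, Cd14 and Adgre1 were lower with the stimulus too, Ly6c2 was higher (345 to 503 CPM against 2200 to 2505 CPM at 6 h), as was Fcgr1 (28.0 to 35.9 CPM against 620.3 to 760 CPM). The 9 neutrophil markers summed to 72.4 to 229 CPM, 87.6 to 360 CPM, 541 to 937 CPM and 123 to 211 CPM in the same order. Of 5 B cell markers 3 were measured, at 34.5 to 371 CPM in all. Most of that sum was Ighm, at 129.5 to 148.2 CPM without and 309.7 to 369.5 CPM with the stimulus at 6 h. Cd79a reached 1.22 CPM and Cd79b 16.4 CPM. The 5 erythroid markers reached 45.3 CPM and the 5 dendritic cell markers 191 CPM, and the 6 T and NK cell markers were not analysed here. The part of these differences in the results was not tested, and in bulk RNA fewer cells of a type and less RNA per cell cannot be told apart. Nfam1 itself, counted over the whole gene with the exons that are not deleted, was at 432 and 408 CPM in unstimulated NFAM1+/+ and 299 and 321 CPM in unstimulated NFAM1-/- libraries at 6 h, but did not separate the genotypes with the stimulus at 6 h (133 and 129 CPM against 135 and 127 CPM). By title Nfam1 at 24 h was at 463 and 495 CPM against 441 and 391 CPM unstimulated and at 271 and 252 CPM against 201 and 223 CPM with the stimulus, so that both NFAM1-/- libraries were lower. By tag the genotypes overlapped, with 495 and 391 CPM against 441 and 463 CPM unstimulated and 252 and 223 CPM against 201 and 271 CPM with the stimulus. By title the test called Nfam1 in none of the 4 conditions (limma, adjusted p from 0.0799 to 0.978).

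In unstimulated monocytes at 6 h, Parp1 was the most abundant of the 8 transcripts per length of exon. Its level was 23.2 CPM per kb, against 10.8 CPM per kb for Parp14, 8.74 for Parp8, 8.28 for Parp9, 8.24 for Dtx3l, 5.29 for Parp12, 4.44 for Parp10 and 2.20 for Parp11. The ranges of Parp8, Parp9 and Dtx3l overlapped over the 4 libraries, as did those of Parp12 and Parp10, and the other neighbours in this order were separate. With IFN-γ plus CD40L at 6 h the order was turned over. Parp14 led at 341 CPM per kb, followed by Parp12 at 274 and Dtx3l at 173, Parp9 and Parp10 overlapped at 150.3 and 149, and Parp11 at 34.7, Parp8 at 17.5 and Parp1 at 2.71 CPM per kb came last. Summed over the 8 genes, the level was 433 to 456 CPM in unstimulated and 6776 to 7738 CPM in stimulated libraries. The share of Parp1 in that sum was 24.9% to 29.9% without and 0.163% to 0.228% with the stimulus, and the share of Parp14 was 20.5% to 25.8% without and 43.6% to 47.4% with it.

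**Figure D1:**
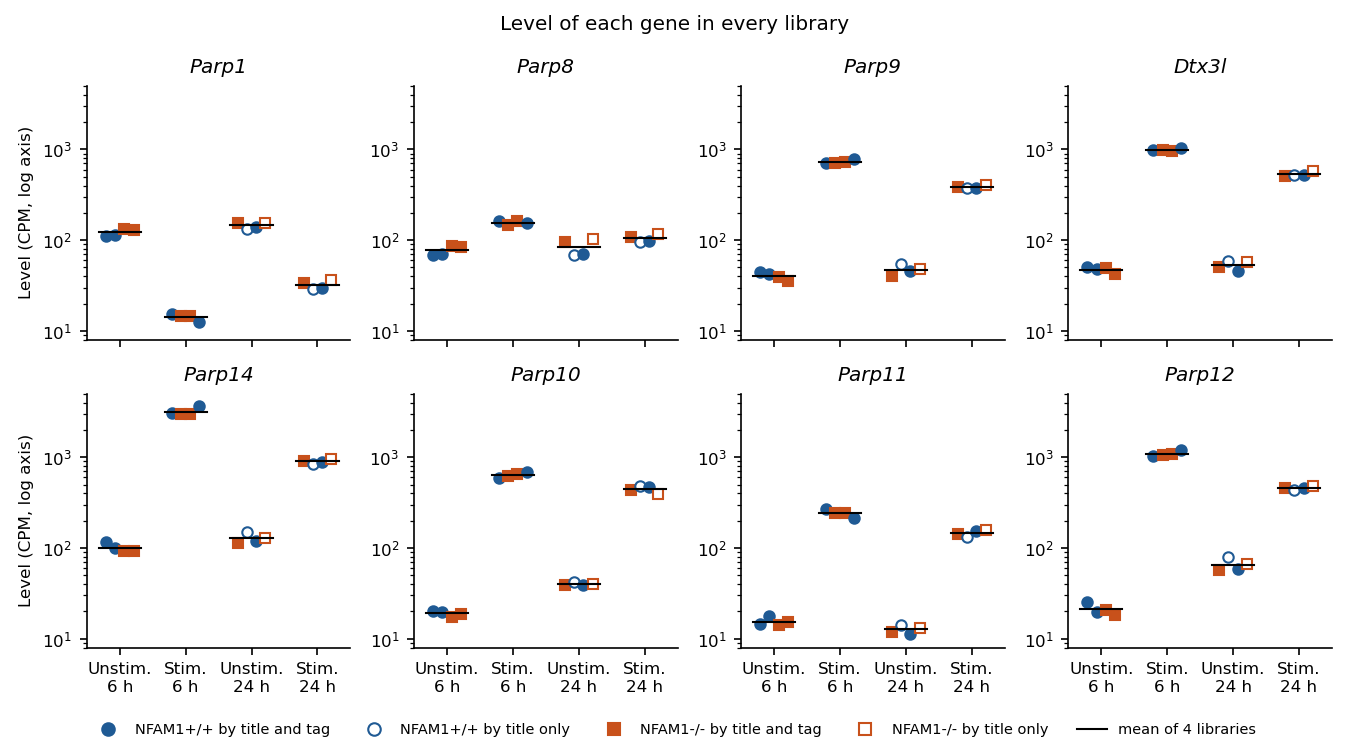
Level of each gene in CPM (log axis) in the 16 libraries, by stimulus and time, with 1 point per library and a bar at the mean of the 4 libraries. Circles are NFAM1+/+ and squares NFAM1-/- by title, and open symbols mark the 4 libraries whose genotype tag differs. Parp1 drops with the stimulus at both times, Parp8 moves least, and the other 6 genes rise by an order of magnitude or more at 6 h.

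The first comparison asked how the stimulus changed these genes at 6 h. With IFN-γ plus CD40L, 7 of the 8 genes were called higher and Parp1 was called lower (limma, Benjamini-Hochberg adjusted p under 0.05 and a fold change of at least 2). Among the 12306 genes tested, 18.9% were called higher and 20.3% lower. The 4 stimulated and 4 unstimulated libraries did not overlap for any of the 8 genes, which held for 73.1% of all genes tested. The median log2 fold change of the 8 genes was 4.29, against -0.13 for all genes.

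Parp12, a zinc-finger member with reported activity against viruses, rose most. Without the stimulus it was at 25.2 and 19.9 CPM in NFAM1+/+ and 21.0 and 18.5 CPM in NFAM1-/- libraries, and with it at 1199 and 1024 CPM and at 1055 and 1097 CPM. That is a 52.0-fold rise, with a log2 fold change of 5.70 (SE 0.10, adjusted p = 3.59e-18). Parp10, a mono-ADP-ribosyltransferase first described as a partner of MYC, was at 20.0 and 19.6 CPM and at 17.5 and 18.9 CPM without the stimulus, and at 687 and 590 CPM and at 624 and 648 CPM with it. Its log2 fold change was 5.07 (SE 0.07, adjusted p = 2.88e-19). The 4 libraries of each condition lay close together for both genes, far from those of the other condition.

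Parp14, a large macrodomain protein, had the highest level of the 8 with the stimulus. It was at 116 and 99.8 CPM in NFAM1+/+ and 93.4 and 91.7 CPM in NFAM1-/- libraries without the stimulus, and at 3664 and 3061 CPM and at 2994 and 2982 CPM with it, a log2 fold change of 4.99 (SE 0.10, adjusted p = 1.11e-17). The library at 3664 CPM, number 26, stood apart from the other 3, and without it the log2 fold change was 4.91. Parp9 was at 44.3 and 41.9 CPM and at 39.6 and 35.5 CPM without the stimulus and at 785 and 705 CPM and at 710.2 and 729 CPM with it, a log2 fold change of 4.19 (SE 0.08, adjusted p = 1.16e-17). Dtx3l, the ligase partner of PARP9, was at 50.02 and 47.8 CPM and at 49.2 and 41.8 CPM without and at 1024 and 985 CPM and at 988 and 961 CPM with the stimulus, a log2 fold change of 4.39 (SE 0.08, adjusted p = 5.10e-18). The rises of Parp9 and Dtx3l were thus similar in size, with 95% intervals of 4.02 to 4.35 and of 4.23 to 4.56.

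Parp11, a WWE-domain member of the family, rose from the lowest level of the 8. It was at 14.5 and 17.9 CPM and at 14.02 and 15.4 CPM without the stimulus, and at 213 and 268 CPM and at 246 and 246 CPM with it, a log2 fold change of 3.98 (SE 0.09, adjusted p = 1.47e-16). Parp8, one of the less studied mono-ADP-ribosyltransferases, rose least. It was at 68.8 and 71.1 CPM in NFAM1+/+ and 87.1 and 83.4 CPM in NFAM1-/- libraries without the stimulus, and at 153 and 162 CPM and at 145 and 162 CPM with it, a log2 fold change of 1.01 (SE 0.12, adjusted p = 5.17e-07). Parp8 lay so close to the 2-fold limit that it was no longer called without the library numbered 1, 2, 10 or 12 (0.95 to 0.99), with quantile normalization (0.54) or under the own-total scaling (0.28). Relative to the median of all genes its log2 fold change was 1.13 with the deposited scaling, which the own total leaves the same by construction, and 0.763 with quantile normalization.

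Parp1 was the only one of the 8 genes to fall. It was at 112 and 115 CPM in NFAM1+/+ and 134 and 130 CPM in NFAM1-/- libraries without the stimulus, and at 12.6 and 15.5 CPM and at 14.7 and 14.5 CPM with it. The level was 8.55-fold lower with the stimulus, a log2 fold change of -3.10 (SE 0.09, adjusted p = 2.11e-15), and -2.97 relative to the median of all genes. The log2 fold change of Parp1 was -3.83 with the own total and -3.15 with quantile normalization. The own total leaves the value relative to the median of all genes the same by construction.

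Promoter sequence from RefSeq (build GRCm38.p6) was matched for 5 of the 8 genes, in 6 windows from 250 bases before to 50 bases after an annotated start. Parp9, Parp10 and Parp14, which rose with the stimulus, had no window of their own and were not searched. Each window was searched on both strands for the GAS letters TTCNNNGAA and the ISRE letters GAAANNGAAA. Of all 32817 windows of 300 bases in the same table, 8.29% held the GAS letters, 3.43% the ISRE letters and 0.451% both. The upstream of the 2 starts of Parp11 held both, with the ISRE letters at -44 to -35 and the GAS letters at -37 to -29 from the start, overlapping by 3 bases. The other 5 windows held neither. Parp11, with its 2 starts, is shown because only 1 of them holds the letters, Dtx3l because its window lies in the gene Parp9, and Parp1 because it fell. Letters in capitals mark the overlapping ISRE and GAS matches, and all windows are written 5′ to 3′ on the strand of the gene. The Parp11 windows are at chr6:127446590-127446889 and chr6:127453377-127453676 on the plus strand, the Dtx3l window is at chr16:35938978-35939277 on the minus strand, and the Parp1 window is at chr1:180568641-180568940 on the plus strand.
Parp11, upstream start: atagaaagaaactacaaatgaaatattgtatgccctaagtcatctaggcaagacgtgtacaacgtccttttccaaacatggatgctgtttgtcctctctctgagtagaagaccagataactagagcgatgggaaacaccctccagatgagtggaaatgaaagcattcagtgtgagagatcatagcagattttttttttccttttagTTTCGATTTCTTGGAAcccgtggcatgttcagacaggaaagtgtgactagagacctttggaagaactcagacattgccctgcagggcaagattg
Parp11, downstream start: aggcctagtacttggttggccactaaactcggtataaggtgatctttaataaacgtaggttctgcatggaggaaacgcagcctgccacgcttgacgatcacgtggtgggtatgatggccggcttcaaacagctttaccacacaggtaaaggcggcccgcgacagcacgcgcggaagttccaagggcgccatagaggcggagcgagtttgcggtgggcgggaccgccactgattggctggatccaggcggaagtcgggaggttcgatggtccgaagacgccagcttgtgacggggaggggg
Dtx3l: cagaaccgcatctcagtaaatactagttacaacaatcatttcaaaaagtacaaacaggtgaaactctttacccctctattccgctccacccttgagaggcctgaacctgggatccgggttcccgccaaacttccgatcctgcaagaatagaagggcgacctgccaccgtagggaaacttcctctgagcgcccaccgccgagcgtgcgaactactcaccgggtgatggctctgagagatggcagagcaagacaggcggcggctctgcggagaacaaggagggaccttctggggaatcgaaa
Parp1: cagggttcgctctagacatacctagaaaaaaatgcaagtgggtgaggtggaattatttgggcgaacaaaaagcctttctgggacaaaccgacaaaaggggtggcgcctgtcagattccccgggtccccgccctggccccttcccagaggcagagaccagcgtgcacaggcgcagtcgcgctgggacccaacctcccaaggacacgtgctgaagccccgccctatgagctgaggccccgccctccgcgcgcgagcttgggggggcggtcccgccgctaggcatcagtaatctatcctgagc
In GENCODE vM21 the last 50 bases of the upstream Parp11 window are exon of Parp11, and the whole downstream window lies inside that gene, with 57 bases of exon and 243 of intron. Of the Dtx3l window, 174 bases are exon of Dtx3l and all 300 lie inside Parp9 on the opposite strand, 229 of them exon and 71 intron. Of the Parp1 window, 17 bases are exon of Parp1. A match of these letters is not a binding site, and the table of levels does not separate the starts of Parp11.

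Parp14, Dtx3l and Parp9 lie next to each other among the protein-coding genes of chromosome 16. In GENCODE vM21 on GRCm38, Parp14 spans chr16:35832874-35871544 and Dtx3l chr16:35926511-35939151, both on the minus strand, and Parp9 spans chr16:35938470-35972605 on the plus strand, together 139.7 kb, with 55.0 kb between Parp14 and Dtx3l. Dtx3l and Parp9 run in opposite directions from overlapping 5′ ends. The gene models share 682 bases, of which 458 are exon in both, 9.4% of the exon length of Parp9 and 8.0% of that of Dtx3l, and since the libraries were not stranded, reads there cannot be told apart between the genes.

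The other members are scattered over 4 chromosomes. In the same annotation Parp1 spans chr1:180568924-180601254 and Parp11 chr6:127446840-127494261 on the plus strand, and Parp8 chr13:116854820-117025537, Parp10 chr15:76231174-76243441 and Parp12 chr6:39086410-39118349 on the minus strand. Parp10 shares 205 exon bases, 4.8% of its exon length, with Plec, and reads there cannot be told apart either.

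The genes on either side had smaller log2 fold changes. Hspbap1, 4.4 kb to the left of Parp14, was called higher at 6 h (log2 fold change 1.80, SE 0.09) and at 24 h (1.20, SE 0.09). Dirc2, beyond it, was at 0.54 and 0.81, within 2-fold. To the right of Parp9, Kpna1 was at -0.59 and Wdr5b at -0.66 at 6 h, within 2-fold, and Fam162a was called lower at 6 h (-1.06, SE 0.20) and was at -0.22 at 24 h. With the own total the log2 fold change of Dirc2 at 6 h turned to -0.19, Kpna1 and Wdr5b passed 2-fold at 6 h (-1.32 and -1.39), and Hspbap1 was no longer called at 24 h (0.87). With quantile normalization Fam162a was no longer called at 6 h (-0.83). The 3 genes of the cluster were called higher at both times under each of these scalings.

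**Figure D2:**
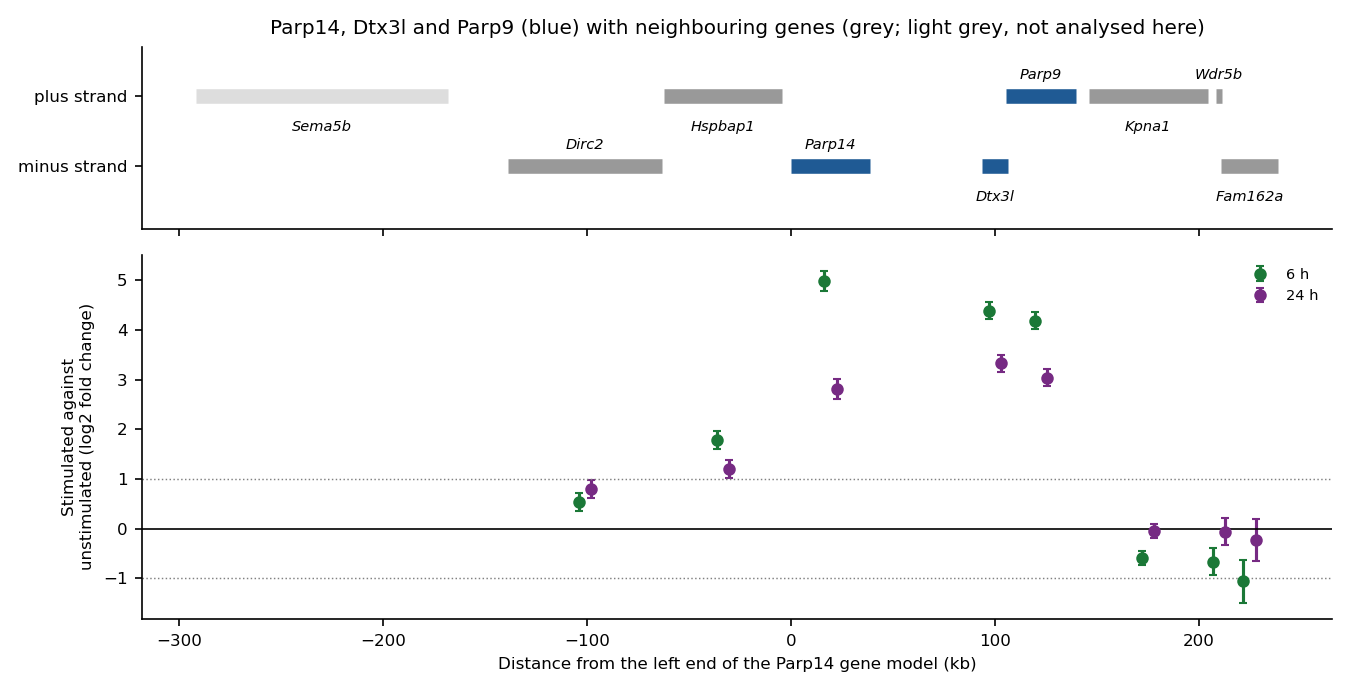
Upper panel, gene models on both strands by distance in kb from the left end of Parp14, with the cluster in blue and neighbours in grey. Lower panel, log2 fold change with the stimulus at the middle of each gene at 6 h (green) and 24 h (purple), with 95% intervals from limma over 16 libraries. Parp14, Dtx3l and Parp9 lie at 4.19 to 4.99 at 6 h and the nearest neighbour, Hspbap1, at 1.80.

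At 24 h the same 6 genes were called higher with the stimulus and Parp1 lower, and the rises were smaller. Among all genes 14.6% were called higher and 18.2% lower at this time. The 8 genes' libraries did not overlap between conditions for all but Parp8, against 69.8% of all genes without overlap. Parp11 was at 11.3 to 14.3 CPM without and 133 to 159 CPM with the stimulus, a log2 fold change of 3.55 (SE 0.09, adjusted p = 1.43e-15). Parp10 was at 39.0 to 42.3 CPM and 396 to 488 CPM, a log2 fold change of 3.47 (SE 0.07, adjusted p = 6.35e-17). These were the 2 steepest rises of the 8 at 24 h, while at 6 h Parp11 had risen least but for Parp8.

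For Dtx3l the libraries at 24 h were at 45.2 to 59.6 CPM without and 507 to 582 CPM with the stimulus, a log2 fold change of 3.33 (SE 0.08, adjusted p = 4.08e-16). Parp9 was at 40.3 to 54.3 CPM and 374 to 403 CPM, a log2 fold change of 3.04 (SE 0.08, adjusted p = 1.59e-15). Parp14 was at 114 to 152 CPM and 839.9 to 970 CPM, with a log2 fold change of 2.82 (SE 0.10, adjusted p = 4.16e-14). Parp12, whose log2 fold change was 2.82 as well (SE 0.10, adjusted p = 6.58e-14), was at 57.3 to 78.7 CPM and 431 to 484 CPM. Parp12, with the largest log2 fold change of the 8 at 6 h, and Parp14 had the lowest of the 6 risen genes at 24 h.

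Parp1 was at 134 to 156 CPM without and 28.6 to 36.6 CPM with the stimulus at 24 h, a log2 fold change of -2.18 (SE 0.09, adjusted p = 4.39e-13). Parp8, at 68.3 to 102 CPM and 95.2 to 117 CPM, overlapped between the conditions. Its log2 fold change was 0.34 (SE 0.12, adjusted p = 0.0152), which passed the adjusted p and not the 2-fold limit. Per length of exon, Parp12 (115 CPM per kb), Parp10 (104.6), Parp14 (96.7) and Dtx3l (93.1) led at 24 h with the stimulus with ranges that overlapped each next in order, and Parp1 was again last at 6.09, after having been first at 27.5 without the stimulus.

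**Figure D3:**
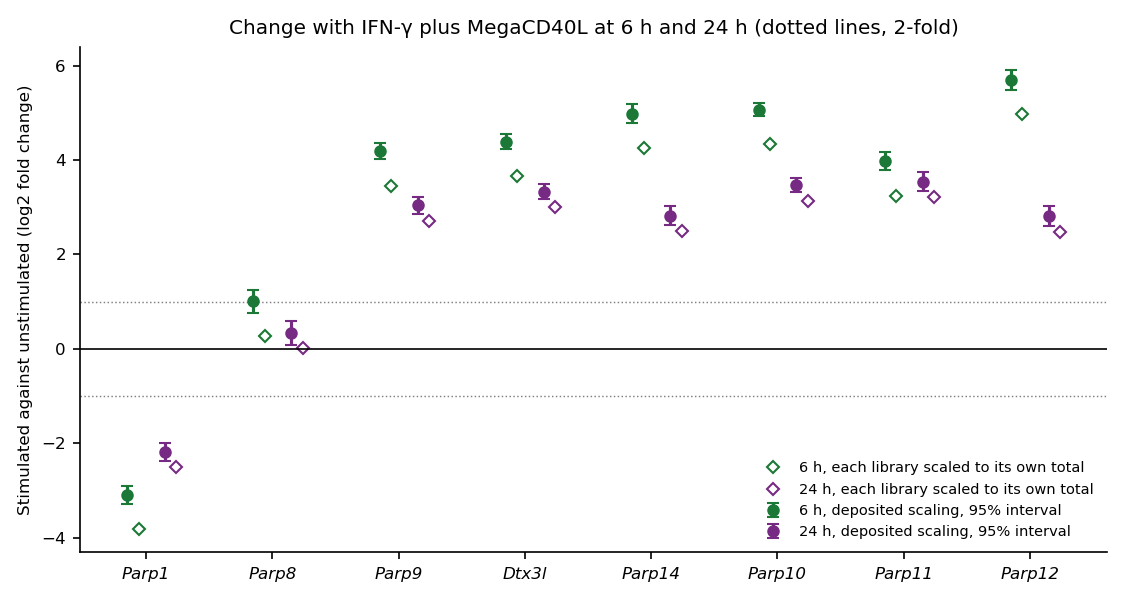
Log2 fold change with IFN-γ plus MegaCD40L at 6 h (green) and 24 h (purple), with 95% intervals from limma over 16 libraries, and open diamonds for each library scaled to its own total. Dotted lines mark 2-fold. Parp12 goes from 5.70 at 6 h to 2.82 at 24 h and Parp11 from 3.98 to 3.55, and Parp8 falls inside the dotted lines under that scaling.

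The difference between the 2 responses was tested as an interaction of stimulus and time. The interaction was called lower at 24 h for 5 of the 8 genes, all with a smaller rise at 24 h than at 6 h. Of all genes 18.1% were called lower and 13.4% higher. These shares go by sign alone, so that the lower calls can include falls that deepened. The differences on the log2 scale were -2.89 for Parp12 (SE 0.14), -2.16 for Parp14 (SE 0.13), -1.59 for Parp10 (SE 0.10), -1.15 for Parp9 (SE 0.11) and -1.06 for Dtx3l (SE 0.11), with adjusted p from 4.79e-11 to 3.28e-07. With the own total Parp9 (-0.75) and Dtx3l (-0.66) were no longer past 2-fold, as with quantile normalization (-0.68 and -0.61), and Dtx3l was at -0.96 over the 12 libraries whose genotype labels agree. The response of Parp1 differed by 0.92 (SE 0.12, adjusted p = 5.83e-06), less far below the unstimulated level at 24 h but within 2-fold. For Parp1 this difference passed 2-fold with the own total (1.31), and its lowest value over the alternatives was 0.65. Parp11 (-0.43, SE 0.13, adjusted p = 0.00794) and Parp8 (-0.67, SE 0.17, adjusted p = 0.00208) passed the adjusted p and not 2-fold. For Parp11 quantile normalization turned the sign, to 0.02.

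These differences had 2 parts. In unstimulated cells between 6 and 24 h, Parp12 and Parp10 rose, where 12.8% of all genes were called higher and 7.58% lower. Parp12 went from 18.5 to 25.2 CPM at 6 h to 57.3 to 78.7 CPM, a log2 fold change of 1.64 (SE 0.10, adjusted p = 3.56e-10), and Parp10 from 17.5 to 20.0 CPM to 39.0 to 42.3 CPM, a log2 fold change of 1.08 (SE 0.07, adjusted p = 6.07e-10). Neither gene overlapped between the times. The share of all genes without overlap was not computed here, and 8134 of 12306 genes had an unadjusted p under 0.05 (limma). The other 6 genes lay between -0.29 for Parp11 and 0.35 for Parp14.

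In stimulated cells between 6 and 24 h, Parp14 and Parp12 were called lower and Parp1 higher, where 16.8% of all genes were called lower and 16.3% higher. Parp14 went from 2982 to 3664 CPM down to 839.9 to 970 CPM, a log2 fold change of -1.82 (SE 0.10, adjusted p = 2.53e-11). Parp12 went from 1024 to 1199 CPM to 431 to 484 CPM, a log2 fold change of -1.25 (SE 0.10, adjusted p = 3.80e-09), which was -0.88 with the own total and -0.71 with quantile normalization, within 2-fold. Parp1 went from 12.6 to 15.5 CPM to 28.6 to 36.6 CPM, a log2 fold change of 1.16 (SE 0.09, adjusted p = 2.22e-09), and 0.97 with quantile normalization. With the own total 69.7% of all calls between these times were higher, against 49.3% with the deposited scaling. With the deposited scaling the other 5 genes lay between -0.93 for Parp9 and -0.51 for Parp10, all past the adjusted p and none past 2-fold. The size of these falls depended on the processing. The smallest falls over the alternatives were -0.40 for Parp9, -0.39 for Dtx3l, -0.32 for Parp11, -0.20 for Parp8 and -0.0012 for Parp10.

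The comparison of genotypes asked whether NFAM1 loss changed these genes. The response to the stimulus at 6 h was called for 8 of 8 genes in NFAM1+/+ cells, 7 higher and 1 lower, where 19.6% of 12111 genes were called higher and 20.1% lower. It was called for 7 in NFAM1-/- cells, 6 higher and 1 lower, where 18.8% were called higher and 19.4% lower. The gene that was called in 1 genotype only was Parp8, with a log2 fold change of 1.17 (SE 0.08) in NFAM1+/+ and 0.84 (SE 0.08) in NFAM1-/- cells. Its difference between the genotypes was -0.32 (SE 0.11, adjusted p = 0.689), which does not pass. None of the 8 genes had a response that was called different between the genotypes, where 0.0% of all genes were called, with 846 genes at an unadjusted p under 0.05.

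The test between the genotypes called 0 of the 8 genes in each of the 4 conditions. Of all genes it called 0.0661% in unstimulated cells at 6 h, 0.033% with the stimulus at 6 h, 0.222% in unstimulated cells at 24 h and 0.115% with the stimulus at 24 h, while 1058, 1522, 1455 and 2163 genes had an unadjusted p under 0.05. In unstimulated cells at 6 h Parp8 was at 68.8 and 71.1 CPM in NFAM1+/+ and at 87.1 and 83.4 CPM in NFAM1-/- libraries, a log2 fold change of 0.29 (SE 0.08, adjusted p = 0.284). Parp1 was higher in both NFAM1-/- libraries as well (0.22, SE 0.10, adjusted p = 0.629), and Parp9, Parp10 and Parp14 were lower in both, at -0.20, -0.13 and -0.22. Libraries of the genotypes did not overlap for these 5 of the 8 genes and for 42.3% of all genes. With the stimulus at 6 h the 8 genes lay between -0.16 for Parp14 and 0.06 for Parp1, with no overlap for Parp14 alone and for 43.0% of all genes.

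At 24 h the direction depended on which label gave the genotype. By title, Parp8 was at 94.4 and 102 CPM in the unstimulated NFAM1-/- libraries and at 68.3 and 69.9 CPM in the NFAM1+/+ libraries, a log2 fold change of 0.51 (SE 0.07, adjusted p = 0.0186), which passed the adjusted p and not 2-fold. By tag it was -0.07. In the pair of unstimulated libraries whose labels agree, Parp8 was at 94.4 CPM in the NFAM1-/- and 69.9 CPM in the NFAM1+/+ library, a difference with no replicate. By title Parp1 and Parp8 did not overlap in unstimulated cells, nor did Parp1, Parp8, Parp9, Parp14 and Parp10 with the stimulus, where 45.5% and 48.9% of all genes did not overlap. By tag all 8 genes overlapped in unstimulated cells, and all but Parp11, Parp12 and Dtx3l overlapped with the stimulus, where 25.4% and 29.3% of all genes did not overlap. By title the log2 fold changes with the stimulus at 24 h lay between -0.22 for Parp10 and 0.26 for Parp1, and by tag between -0.17 for Parp11 and 0.08 for Parp10.

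**Figure D4:**
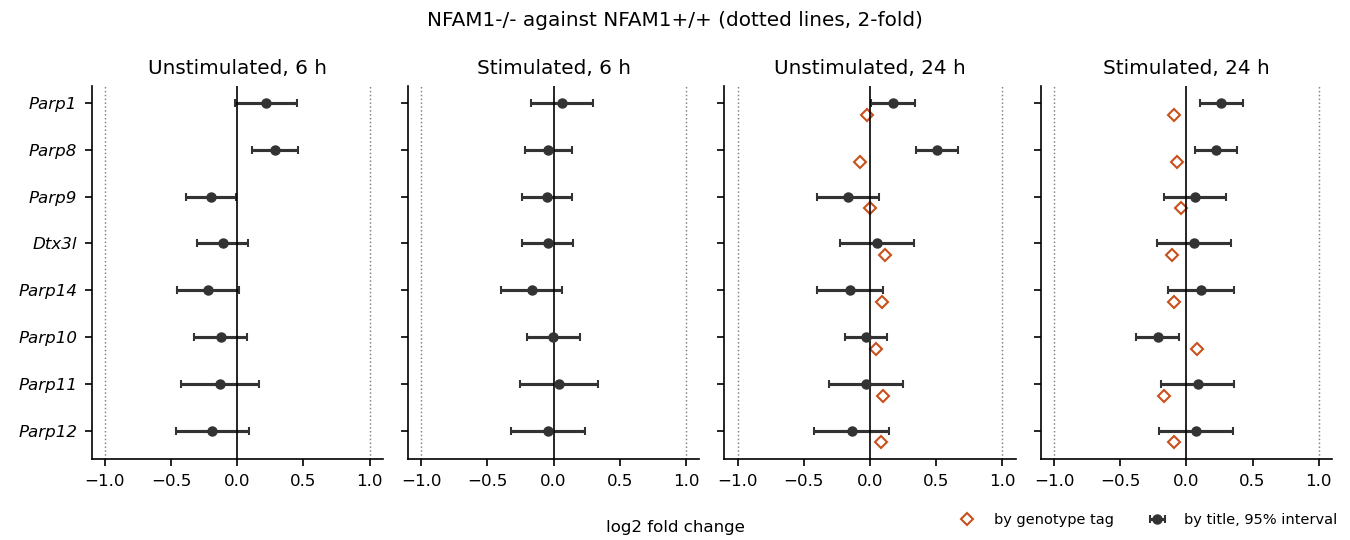
Log2 fold change of NFAM1-/- against NFAM1+/+ for the 8 genes in each stimulus and time, with 95% intervals from limma over the 8 libraries of a time. Open diamonds at 24 h use the genotype tag in place of the title. All values lie inside the dotted 2-fold lines, and most diamonds at 24 h lie on the other side of 0 from the title's values.

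Of the other 9 genes of the PARP family in the table, 4 were called higher and 1 lower at 6 h, and 3 higher at 24 h. Of all genes tested, 18.9% were called higher and 20.3% lower at 6 h, and 14.6% and 18.2% at 24 h. The median log2 fold changes of the 9 genes were 0.76 and 0.32, against -0.13 and 0.02 for all genes. Parp3, a nuclear member that acts at DNA breaks, rose from 7.63 ± 1.05 to 108 ± 15.5 CPM (mean ± SD, n = 4) at 6 h, a log2 fold change of 3.83 (SE 0.14), and of 1.93 at 24 h. Tiparp, which is induced by the aryl hydrocarbon receptor, was at 2.83 and 1.34, and Zc3hav1, the zinc-finger antiviral protein, at 2.42 and 1.504. Parp4, the vault PARP, was called at 6 h only (1.84 and 0.85). These 4 genes were called at 6 h under each scaling.

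Parp2, the closest relative of PARP1 at DNA breaks, was at -0.15 at 6 h and -0.01 at 24 h, where Parp1 was at -3.10 and -2.18. The tankyrases Tnks and Tnks2 were at 0.76 and 0.38 at 6 h and at -0.02 and 0.01 at 24 h, and Parp6 was at -0.76 and 0.32, none past 2-fold. Tnks2 turned to -0.35 at 6 h with the own total and to -0.15 with quantile normalization, and Parp6 passed 2-fold (-1.49) with the own total. Parp16, of the endoplasmic reticulum, was called lower at 6 h (-1.38, SE 0.39) from 0.603 ± 0.309 to 0.215 ± 0.0702 CPM, a level of few reads. Of the 3 measured Deltex ligases other than Dtx3l, none was called at 6 h with the deposited scaling. The own total called Dtx4 lower at that time (-1.497). At 24 h Dtx2 was called higher (2.05, SE 0.09) and Dtx4 lower (-2.25, SE 0.14), while Dtx3 was at 0.02. With the deposited scaling, 39.2% of all genes were called in either direction at 6 h and 32.7% at 24 h.

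Of 9 measured erasers and readers of ADP-ribose, 2 were called higher and 1 lower at 6 h, and 1 higher and 1 lower at 24 h. These counts were near the shares of all genes, 18.9% higher and 20.3% lower at 6 h and 14.6% and 18.2% at 24 h. Adprm, which splits free ADP-ribose, rose at both times (1.28 and 1.78), H2afy, which encodes the macrodomain histone macroH2A1, at 6 h (1.098), and Adprhl2, the hydrolase that takes ADP-ribose off serine, fell at 6 h (-1.31). Macrod1, a mono-ADP-ribose hydrolase, fell at 24 h (-3.20, SE 0.26) from 7.42 ± 0.836 to 0.847 ± 0.310 CPM. Parg, the main enzyme that degrades poly(ADP-ribose), was at 0.02 and 0.31. With the own total Adprm and H2afy were not called at 6 h (0.55 and 0.37), and the count at 6 h was 0 higher and 3 lower. H2afy was not called with quantile normalization either (0.26).

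Of 8 partners of PARP1 in DNA break repair, 3 were called lower and 1 higher at 6 h, and 0 at 24 h. Among all genes, 20.3% were called lower and 18.9% higher at 6 h, and 18.2% and 14.6% at 24 h. Aplf (-2.05), Lig3 (-1.15) and Chd1l (-1.03) fell and Timeless, which binds PARP1, rose from 14.7 ± 2.33 to 147 ± 27.9 CPM (3.32, SE 0.16). Xrcc1, the scaffold that poly(ADP-ribose) recruits, was at -0.69, within 2-fold, and Hpf1, which directs PARP1 to serine, at 0.35. Lig3 (-0.97) and Chd1l (-0.78) were not past 2-fold with quantile normalization, and Xrcc1 was called lower with the own total (-1.42). At 24 h the own total called Chd1l lower (-1.21), and quantile normalization called Timeless higher (1.08).

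Of 12 measured genes of NAD synthesis and use, 4 were called higher and 2 lower at 6 h, and 4 higher at 24 h. The shares of all genes were 18.9% higher and 20.3% lower at 6 h, and 14.6% and 18.2% at 24 h. Cd38, an NAD glycohydrolase, rose from 0.699 ± 0.299 to 24.7 ± 1.69 CPM at 6 h (5.28, SE 0.37). At 24 h it went from 0.370 ± 0.184 to 39.8 ± 10.7 CPM (6.85, SE 0.37). Its unstimulated means lay under the 1 CPM of the filter, which it passed through the stimulated libraries, so its fold changes start near the floor. Nampt, the rate-limiting enzyme of NAD salvage, rose from 63.4 ± 4.86 to 2235 ± 36.4 CPM (5.14, SE 0.08) and was at 3.65 at 24 h, and Bst1, a relative of Cd38, was at 4.82 and 5.01. These 3 genes were called at both times under each scaling. Sirt1 (1.19) was called higher and Nmnat3 (-1.71) and Nadsyn1 (-1.03) lower at 6 h, and Sirt6 higher at 24 h (1.24). Sirt1 and Nadsyn1 lost the call under 1 of the scalings or both, with the values of Sirt1 at 0.46 (own total) and 0.99 (quantile) and that of Nadsyn1 at -0.78 (quantile), and Sirt6 was at 0.91 with the own total. Nadk, the NAD kinase, was at -0.81, within 2-fold, and passed it under both of these scalings (-1.54 with the own total). The own total called 3 genes of this list higher and 5 lower at 6 h.

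The 11 listed genes of the core IFN-γ response, among them Irf1 and Gbp2, were all called higher at 6 h and at 24 h. Of all genes, 18.9% and 14.6% were called higher at these times. The median log2 fold changes of the 11 genes were 6.39 and 4.14. Irf9 was not past 2-fold at 24 h with the own total (0.93) and with quantile normalization (0.99). Irf1 rose by 6.497 (SE 0.07) on the log2 scale at 6 h and 5.35 at 24 h. At 6 h this list ranged widely, from 1.87 for Irf9 to 11.1 for Cxcl9. Parp9, Parp10, Parp11, Parp12, Parp14 and Dtx3l, from 3.98 for Parp11 to 5.70 for Parp12, lay in that range. So did other genes, among them Parp3 (3.83) and Nampt (5.14).

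**Figure D5:**
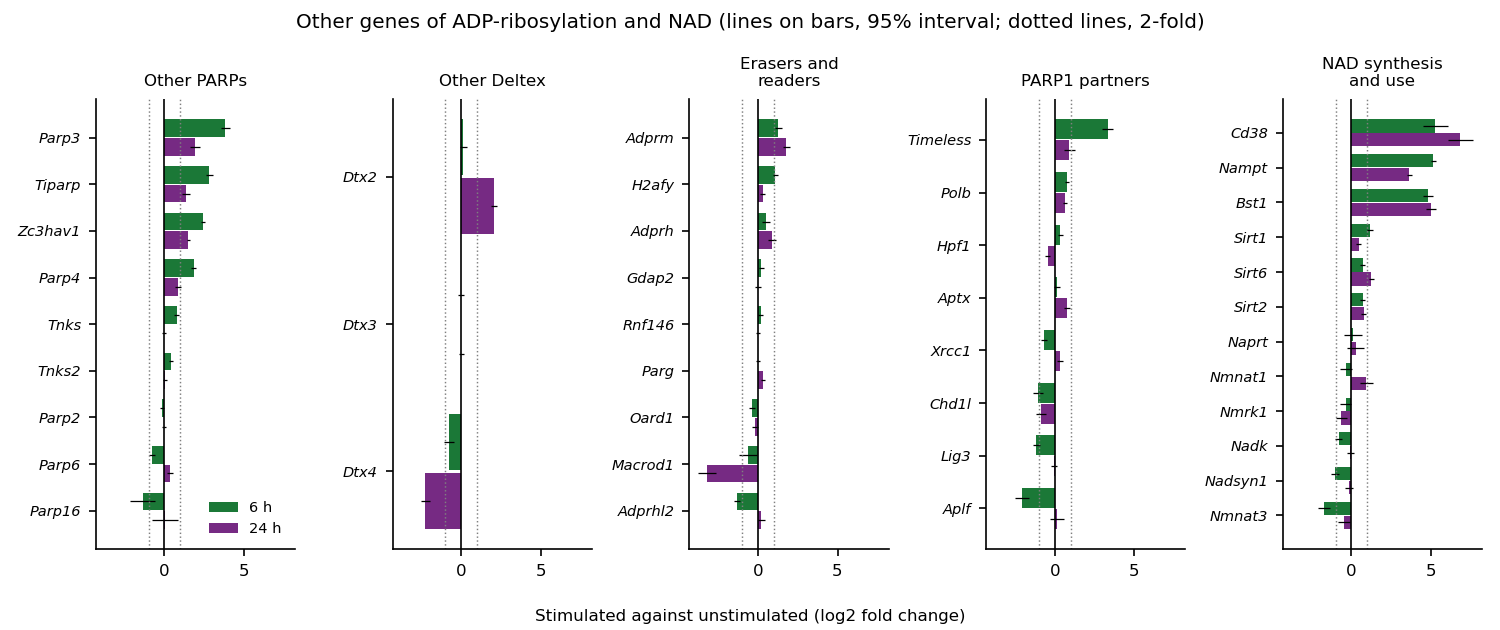
Log2 fold change with the stimulus at 6 h (green) and 24 h (purple) of the measured genes in 5 lists, other PARP-family genes, other Deltex ligases, erasers and readers of ADP-ribose, PARP1 partners in DNA break repair, and genes of NAD synthesis and use, with 95% intervals from limma over 16 libraries. The largest bars are those of Cd38, Nampt and Bst1, and the mean of Cd38 was under 1 CPM without the stimulus. Of the 8 PARP1 partners, 3 pass the dotted 2-fold line downwards at 6 h and none at 24 h. Among all genes, 20.3% were called lower at 6 h and 18.2% at 24 h.

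Across the 16 libraries the genes that rose followed each other closely. Parp9 and Dtx3l had a Pearson r of 0.999 over log2 CPM, and the 15 pairs among Parp9, Parp10, Parp11, Parp12, Parp14 and Dtx3l lay between 0.9458 and 0.999. Parp8 was at 0.8196 to 0.8921 with these 6, and Parp1 at -0.9892 to -0.9405. All libraries share the design of stimulus and time, which sets most of these correlations, and Parp9 and Dtx3l share exon sequence.

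The genes outside the 8 whose log2 CPM was most like that of Dtx3l were Gbp2 (r = 0.9993), Irgm1 (0.999) and Irgm2 (0.9986). Those most like Parp9 were Gbp2, Irgm1 and Ifit1, with r from 0.9981 to 0.9986. Nampt (0.9993), Tapbp and Stx2 were most like Parp10, Rnf213, Trim30a and Pml most like Parp12, Ifih1, Znfx1 and D17Wsu92e most like Parp14, and 1110038F14Rik, Serpina3g and Cxcl10 most like Parp11, with r from 0.9972 to 0.9989 for all but Nampt. Parp8 had no gene so close, with Usf1 (0.9658), Gm20627 (0.959) and Tlk1 (0.9571) at the top. Parp1 was followed most closely by Ifngr1 (0.9974), which encodes a chain of the IFN-γ receptor, Bmf (0.9943) and Krt80 (0.9934).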

How the data were processed

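RNA of 16 monocyte libraries was sequenced from polyA-selected, non-stranded libraries. The deposited values are log2 CPM (counts per 1000000 reads), which the authors made from reads aligned with STAR and counted with Rsubread, with library sizes scaled by edgeR. The submitters' processing notes name GRCm39, and the annotation, tool versions and filter on low genes are not given in the sources used here. Each value equals log2 of reads plus 0.5 over the scaled library size, and whole reads were recovered from all of them (relative tolerance 1e-05). Of 13085 symbols, 17 are written as dates.

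Groups came from the titles. Genes that reached 1 CPM in 4 or more of the 16 libraries (12306) were fitted with limma 3.58.1 in R 4.3.3, with a group for each stimulus and time, trended variance and Benjamini-Hochberg adjustment over all genes. Genotypes were compared within the 8 libraries of a time (1 CPM reached in 2 or more libraries, 12111 genes at 6 h and 12164 at 24 h). Calls needed an adjusted p under 0.05 and a fold change of at least 2. The fits were tested on simulated data. All 8 genes were named, neighbours and listed genes by their calls or role, and the members and lists were chosen with earlier results of these data known. CPM per kb used GENCODE vM21 exon lengths. Alternatives changed the scaling, filter, variance prior, weights, groups, genotype label and libraries. Of the genes first listed, 2 are not reported here and enter no count of a list. Libraries stimulated with IFN-γ alone were not analysed here. The IFN-γ dose differs between the labels and the study's methods.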

Additional observations from a re-analysis of the deposited data

Results flagged for a closer look

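Parp14 with the stimulus at 6 h had 1 library far from the others. Library 26 was at 3664 CPM. On the log2 scale its gap to the next library was 0.873 of the range of the 4, past Dixon's limit at 95% for 4 values. It was the only one of 36 groups of 4 values looked at to pass that limit, which chance passes in about 1 of 20. Without it the log2 fold change of Parp14 at 6 h was 4.91 (SE 0.09, adjusted p = 1.04e-16, limma).

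The response to the stimulus differed between 6 and 24 h for 5 genes, by the interaction of stimulus and time. It was smaller at 24 h by -1.15 on the log2 scale for Parp9, by -1.59 for Parp10, by -2.89 for Parp12, by -2.16 for Parp14 and by -1.06 for Dtx3l. Parp10 and Parp12 rose between the times without the stimulus, by 1.08 and 1.64, and these rises enter their differences.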

How the results depend on the processing

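The rises of Parp9, Parp10, Parp11, Parp12, Parp14 and Dtx3l and the fall of Parp1 with the stimulus at 6 h kept their direction and call under every alternative run, single libraries left out included, and over the alternatives with all libraries lay at 3.45 to 4.19, 4.34 to 5.07, 3.25 to 4.00, 4.97 to 5.70, 4.13 to 4.99, 3.66 to 4.39 and -3.83 to -3.10. Of the counts of members called, 192 values under alternatives stayed within 1.5 times and 6 did not. With no minimum fold change 8 genes had a different response at 24 h than at 6 h, 6 differed between the times unstimulated, 8 stimulated, and 1 (Parp8) differed between the genotypes unstimulated at 24 h, and with quantile normalization the response differed for 3 genes and the stimulated times for 1. Without a minimum fold more genes can pass by construction. Of all 12306 genes, 8502 had an unadjusted p under 0.05 (limma) for the difference of responses. Between the times it was 8134 unstimulated and 9498 stimulated. Between the genotypes unstimulated at 24 h it was 1455 of 12164 genes. For quantile normalization the cause was not tested. Of values of single members, 1508 stayed, 16 gained and 16 lost the call, and 44 changed sign.

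The sign changes were in genotype differences, but for the 2 between times given last in this and the next paragraph. Under the tag they include the largest genotype differences by title at 24 h, that of Parp8 unstimulated (0.51) and those of Parp1 (0.26), Parp8 (0.22) and Parp10 (-0.22) with the stimulus. With the genotype tag, stimulated at 24 h, the log2 values were -0.109 for Dtx3l, -0.091 for Parp1, 0.0798 for Parp10, -0.172 for Parp11, -0.0952 for Parp12, -0.0968 for Parp14, -0.0705 for Parp8 and -0.0429 for Parp9. Unstimulated at 24 h they were -0.0204 for Parp1, 0.0428 for Parp10, 0.0998 for Parp11, 0.0847 for Parp12, 0.0868 for Parp14, -0.0747 for Parp8 and 5e-04 for Parp9. Stimulated at 6 h, quantile normalization gave 0.0035 for Dtx3l, 0.0102 for Parp10 and 0.0108 for Parp12, and the own total 0.009 for Parp10. Parp11's response at 24 h against 6 h was 0.0213 with quantile normalization. The cause of these was not tested, beyond the exchange of libraries by the tag.

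Leaving out 1 library at a time gave these ranges where a sign changed. Between genotypes stimulated at 24 h, Dtx3l was at -0.0414 to 0.158 and Parp11 at -0.0215 to 0.189. Unstimulated at 24 h, Dtx3l was at -0.146 to 0.252, Parp10 at -0.0901 to 0.0251, Parp11 at -0.202 to 0.142, Parp12 at -0.339 to 0.0661 and Parp14 at -0.327 to 0.0242. Unstimulated at 6 h, Dtx3l was at -0.227 to 0.0074 and Parp11 at -0.284 to 0.0201. Stimulated at 6 h, Parp1 was at -0.0859 to 0.211, Parp10 at -0.111 to 0.108, Parp11 at -0.126 to 0.205, Parp12 at -0.157 to 0.0715, Parp8 at -0.116 to 0.0378 and Parp9 at -0.126 to 0.0299. For the difference of responses between genotypes at 6 h, Dtx3l was at -0.0514 to 0.183, Parp12 at -0.0241 to 0.315 and Parp14 at -0.0741 to 0.186. Between the times unstimulated, Parp8 was at -0.0102 to 0.184. A group left with 1 library was assumed to vary like the others.

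No paired analysis was possible because each library carries a number of its own. Each genotype had 2 libraries per stimulus and time, which limits the precision of its differences.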
